A study of Mus musculus with 6 samples.

Results

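*Peg10*, *Sgce*, *Casd1*, *Ppp1r9a*, *Asb4*, *Calcr* and *Tfpi2* are genes of the imprinted region at the start of mouse chromosome 6, and 7 of the 55359 genes in the deposited table. They were looked up by Ensembl identifier, and all lie on chromosome 6 with a first base between 3.6 and 5.5 Mb. They were chosen by this position in an imprinted region, and also with their counts in view, because *Casd1*, *Sgce* and *Peg10* were already known to hold counts in UN-SCC679 and none in UN-SCC680. The difference between the lines in these 7 genes is therefore a description, and no p-value is given for it. Fitted fold changes, standard errors and intervals printed for these genes describe its size and are no support for a difference.

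The RNA came from 2 mouse lung squamous cell carcinoma (LUSC) lines, UN-SCC679 and UN-SCC680, with 3 libraries of polyadenylated RNA for each. Both lines were derived from lung tumors that arose in A/J mice painted with the carcinogen N-nitroso-tris-chloroethylurea (NTCU), each line from a different mouse, and both were passed through immunodeficient (Rag-/- IL2Rg-/-) and then A/J mice before the working lines were set up. Neither group is an untreated control, and each line stands for a single tumor, so a line's other traits and its imprinted genes cannot be told apart. Nothing in the labels says that the 3 libraries of a line came from separate cultures, so a p-value measures the spread between these libraries, which may be technical.

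In an imprinted gene the copy inherited from 1 parent is used and the other is silent. Which copy is used depends on marks such as DNA methylation laid down in the egg or the sperm. *Peg10* and *Sgce* are paternally expressed, lie head to head and share a CpG-rich start region that is methylated on the maternal copy. *Peg10* derives from the gag and pol genes of a retrotransposon, is needed to form the placenta, and is expressed in several tumor types. *Sgce* encodes epsilon-sarcoglycan, a membrane protein, and its loss from the paternal copy causes myoclonus-dystonia in humans. *Ppp1r9a*, *Asb4*, *Calcr* and *Tfpi2* are known as maternally expressed, several of them only in placenta or brain. A/J is an inbred strain and the table holds no allele counts, so which parental copy gave a transcript was not measured.

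The libraries held 3568293 to 4363229 counts in UN-SCC679 and 4242716 to 4381885 in UN-SCC680. Most rows of the table carry gene positions that are not those of GRCm38 (mm10), the build named for the reads, and rows at other positions can be nearly empty whatever the gene does. *Actb*, for example, held 6 counts over the 6 libraries. Values are read as expression for the 527 rows whose first or last base lies within 10 bases of the RefSeq gene on GRCm38.p6, and for the other rows between 3.6 and 5.5 Mb. All 7 genes meet this limit. Of all the rows between 3.6 and 5.5 Mb that could be placed by name, 16 met it, 1 (*Pon2*) was unclear and 0 had moved. The labelled cell type could not be checked, since 0 of 12 squamous markers lie at such positions.

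The starts of 5 of the 7 genes (*Casd1*, *Ppp1r9a*, *Asb4*, *Calcr* and *Tfpi2*) were matched by symbol in a RefSeq table of promoters on GRCm38.p6. The sequences before the starts of *Casd1* and *Asb4* are shown because these were the most abundant of the 7 genes in UN-SCC679, and both were far lower in UN-SCC680. Each has 2 listed starts, of which the first is shown. Both are on the + strand, at chr6:4600661-4600838 for *Casd1*, which ends at the base before the first exon in the table, and at chr6:5383136-5383385 for *Asb4*. Capitals mark each CpG, the dinucleotide at which mammalian DNA is methylated.
Casd1: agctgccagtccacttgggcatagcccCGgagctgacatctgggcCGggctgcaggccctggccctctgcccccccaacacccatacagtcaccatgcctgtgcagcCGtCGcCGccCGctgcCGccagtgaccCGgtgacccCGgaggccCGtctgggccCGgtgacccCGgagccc
Asb4: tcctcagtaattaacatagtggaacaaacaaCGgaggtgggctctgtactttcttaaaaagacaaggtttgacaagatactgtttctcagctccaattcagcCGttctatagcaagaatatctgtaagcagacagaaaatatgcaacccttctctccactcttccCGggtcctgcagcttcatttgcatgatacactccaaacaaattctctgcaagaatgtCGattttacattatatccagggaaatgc

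In the 250 bases before these first starts, the *Casd1* window held 17 CpG and the *Asb4* window 4, against a median of 6 over all 32851 promoter windows of that length. At the second listed starts the order was the reverse, with 4 CpG for *Casd1* (chr6:4623661-4623910) and 8 for *Asb4* (chr6:5390160-5390409). As many as 17 were found in 23.5% of these windows and as many as 4 in 62.2%. The first *Ppp1r9a* window held 8 CpG, and the second, at chr6:4903061-4903310, held 35, a number reached by 2.97% of windows. The letters TGCCGC, the core of the motif of ZFP57, a protein that keeps imprints methylated in the early embryo, were searched on both strands. They occurred in 2 of the 11 windows of the 5 genes, once in the first *Casd1* window and once in 1 of the 2 *Calcr* windows, and in 8.68% of all windows. The second *Casd1* window and all windows of *Asb4*, *Ppp1r9a* and *Tfpi2* held 0. These are matches of letters, and methylation was not measured.

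Of the 7 genes, 5 were detected in UN-SCC679, with more than 3 counts in every library, and 2 in UN-SCC680. The paternally expressed pair was found in UN-SCC679 alone. *Peg10* (ENSMUSG00000092035, chromosome 6, 4747306 to 4760517, + strand) held 98, 113 and 71 counts in the UN-SCC679 libraries and 0, 0 and 0 in those of UN-SCC680. *Sgce* (ENSMUSG00000004631, 4674350 to 4747207, - strand) held 25, 19 and 26 counts against 0, 0 and 0. Every UN-SCC679 library was thus above every UN-SCC680 library for both genes, which the choice of genes had already fixed.

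The normalized level of *Peg10* in UN-SCC679 was 23.9 ± 3.56 CPM (counts scaled to a common library size; SD, n = 3), and that of *Sgce* was 6.08 ± 1.56 CPM (SD, n = 3). A count of 0 allows up to 3 counts, which is 0.685 to 0.707 CPM in the UN-SCC680 libraries. Against this limit, set in each library and averaged, *Peg10* was at least 34.6-fold lower in UN-SCC680 and *Sgce* at least 8.81-fold lower. Such bounds cover counting error in UN-SCC680 only and take the mean level in UN-SCC679 as exact. The smaller bound of *Sgce* follows from its lower level in UN-SCC679. In bulk RNA, fewer cells with a transcript and less transcript per cell cannot be told apart.

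*Casd1*, which encodes the enzyme that adds O-acetyl groups to sialic acids, lies next to *Sgce* and was the most abundant of the 7 genes. *Casd1* (ENSMUSG00000015189, 4600839 to 4643355, + strand) held 586, 673 and 578 counts in UN-SCC679 and 0, 0 and 0 in UN-SCC680. Its level in UN-SCC679 was 157 ± 4.29 CPM (SD, n = 3), and it was at least 227-fold lower in UN-SCC680. An unnamed row inside an intron of *Casd1*, on the same strand, held 7, 9 and 11 counts against 0, 0 and 0.

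The maternally expressed genes on the other side of *Peg10* were lower in UN-SCC680 but still detected. *Ppp1r9a*, which encodes neurabin, a scaffold that binds actin and protein phosphatase 1, lies at 4902917 to 5165661 (ENSMUSG00000032827, + strand). It held 31, 46 and 18 counts in UN-SCC679 and 5, 5 and 4 in UN-SCC680. *Asb4*, which encodes a substrate-binding part of an E3 ubiquitin ligase, lies at 5383386 to 5433022 (ENSMUSG00000042607, + strand). It held 175, 208 and 163 counts in UN-SCC679 and 10, 5 and 12 in UN-SCC680. For both genes the lowest UN-SCC679 library was above the highest UN-SCC680 library. The share of all rows separated in this way was not computed. Such separation is not particular to these genes, since by CPM the lines also did not overlap for the uncalled neighbors *Bet1* and *Pon2*.

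The level of *Ppp1r9a* in UN-SCC680, as mean CPM by library total, was 13.6% of that in UN-SCC679, a fitted log2 fold change of -2.85 (standard error 0.35). Its pooled count ratio, UN-SCC679 over UN-SCC680, was 7.55, with an exact 95% interval for counting error of 4.28 to 14.3. *Asb4* in UN-SCC680 stood at 4.47% of its UN-SCC679 level, a fitted log2 fold change of -4.44 (standard error 0.19), and its pooled ratio was 22.5 (15.3 to 34.4). The 2 intervals do not overlap, but they leave out the spread between libraries, and the 2 differences were not tested against each other.

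*Calcr*, which encodes the calcitonin receptor, held 0 counts in all 6 libraries. *Tfpi2*, which encodes a Kunitz-type inhibitor of serine proteases, held 1 count in UN-SCC680 replicate 1 and 0 in the other libraries. Expression of both was not detectable at this depth in either line, and no fold is given. They lie at 3685680 to 3764714 (*Calcr*, ENSMUSG00000023964) and 3962595 to 3988919 (*Tfpi2*, ENSMUSG00000029664), both on the - strand.

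**Figure D1:**
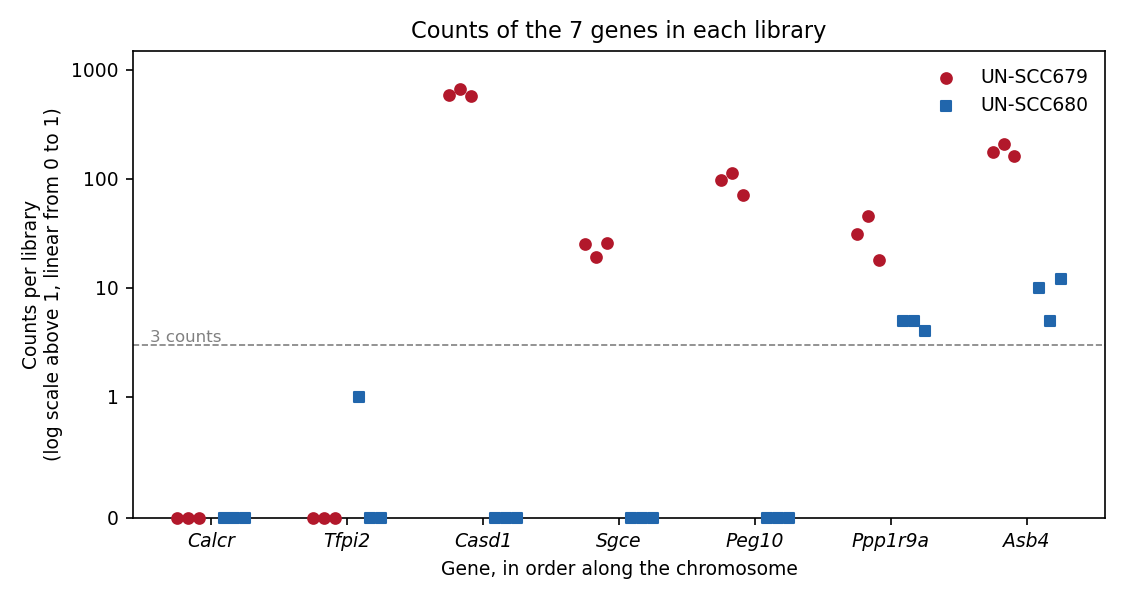
Counts in each of the 6 libraries (1 point per library, log scale above 1) for the 7 genes, ordered along chromosome 6, with a dashed line at 3 counts. *Casd1*, *Sgce* and *Peg10* sit at 0 in all UN-SCC680 libraries, *Ppp1r9a* and *Asb4* sit between 4 and 12 counts there, and *Calcr* and *Tfpi2* are at or near 0 in both lines.

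Over the whole table, edgeR's quasi-likelihood test at an adjusted p-value under 5e-05 called 30.4% of the 8987 rows tested, 15.3% as higher and 15.2% as lower in UN-SCC680. Among the 268 tested rows at GRCm38 positions it called 61.6%, with 39.6% higher and 22.0% lower. With scaling factors taken from these 268 rows alone, chosen after seeing the data, 75 were called higher and 84 lower in place of 106 and 59, and the median log2 fold change shifted by -0.18. Of the 7 genes, 5 passed the filter on low counts, all through their UN-SCC679 counts, and all 5 fell in the lower group, which the choice of genes had already fixed. With *Peg10*, *Sgce* and *Casd1* at their bounds, the median log2 fold change of the 5 was at most -4.44. Over the 268 rows it was 0.18, a contrast that the choice of genes had also fixed.

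Rows with counts in UN-SCC679 and none in UN-SCC680 were few. Among the 268 rows, 7 held 0 counts in all UN-SCC680 libraries (2.61%): *Casd1*, *Sgce*, *Peg10*, *Cftr*, *Cttnbp2*, *Cadps2* and *Decr1*. This share includes *Casd1*, *Sgce* and *Peg10*, which were chosen with their 0 counts known. The reverse, 0 counts in all UN-SCC679 libraries, was found for 0 of the 268. Among all 8987 tested rows, most of which were not read as expression, 38 held 0 counts in UN-SCC680 (0.423%) and 8 in UN-SCC679.

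Per length of exon, the 5 detected genes covered a wide range in UN-SCC679. *Casd1* had 39.2 ± 0.959 RPKM (CPM by library total, divided by the exon length in kb; SD, n = 3), close to the median of 43.2 for the 268 tested rows. This length sums all exons of a row, and the length of the transcripts present was not measured. *Asb4* followed with 11.9 ± 0.266 and *Peg10* with 3.61 ± 0.545 in the same unit. *Sgce* (0.578 ± 0.147) and *Ppp1r9a* (0.550 ± 0.191) came last, at ranks 263 and 264 of 268. The libraries of neighboring genes in this order did not overlap, except those of *Sgce* (0.410 to 0.687) and *Ppp1r9a* (0.347 to 0.726), which did not differ beyond their spread.

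In UN-SCC680 the per-length level was 0.532 ± 0.216 for *Asb4* and 0.0745 ± 0.00936 for *Ppp1r9a* (RPKM; SD, n = 3). The limit that a count of 0 in 1 library allows was 0.172 for *Casd1*, 0.104 for *Peg10* and 0.0655 for *Sgce* in the same unit.

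The spread between UN-SCC679 libraries differed among the genes. The coefficient of variation of *Casd1* was 2.45%, against 4.04% for counting alone, and that of *Asb4* was 2.23% against 7.41%. *Peg10* varied by 15.1% against 10.3%, *Sgce* by 25.5% against 20.7%, and *Ppp1r9a* by 34.7% against 17.8%. By CPM on library totals, *Peg10* (19.9), *Ppp1r9a* (5.04) and *Asb4* (45.7) had their lowest UN-SCC679 level in replicate 3. *Sgce* (4.35) and *Casd1* (154) had theirs in replicate 2.

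*Peg10* and *Sgce* are transcribed away from each other from starts with 98 bases between the 2 rows, yet their levels differed. Per length of exon, *Peg10* exceeded *Sgce* in each UN-SCC679 library, by 4.35-fold to 9.47-fold (mean 6.68 ± 2.59, SD, n = 3). The summed exon length was 6667 bases for *Peg10* and 10612 for *Sgce*, so part of this ratio may come from length. By CPM on library totals, without length, the mean levels in UN-SCC679 were 24.1 and 6.13. None of the exon bases of the 7 genes are shared with another row of the table on either strand, so no count had to be divided between overlapping rows.

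The 0 counts of UN-SCC680 ran over 10 neighboring rows, from beyond the end of *Col1a2* to the start of *Ppp1r9a*, a distance of 361 kb between these 2 genes. The 10 rows held 2220 counts in UN-SCC679, in 5 of the rows, and 0 in UN-SCC680. Beyond this stretch the levels in UN-SCC680 alternated between low and near or above those of UN-SCC679. Of the other 33 rows between 3.6 and 5.5 Mb, 14 held 0 counts in all libraries and 8 were tested, of which 2 were called higher, 3 lower and 3 neither. These rows are not all separate genes. An unnamed row called lower lies within *Col1a2*, and another, called higher, lies within the RefSeq extent of *Pon3*. Over the whole table the share called was 30.4%, and among the tested rows at GRCm38 positions it was 61.6%, near the share of these neighbors.

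On the *Casd1* side, *Col1a2*, which encodes a chain of type I collagen, was called lower in UN-SCC680, at 7.93% of its UN-SCC679 level. It held 99141, 125364 and 103704 counts in UN-SCC679 and 9976, 9655 and 9290 in UN-SCC680, which edgeR's quasi-likelihood test put at -3.63 ± 0.031 on the log2 scale (standard error; adjusted p = 4.98e-52). *Col1a2* is also a marker of fibroblasts and the only 1 of 10 such markers at a GRCm38 position, so the part of fibroblast-like cells in the result was not tested. *Bet1*, a SNARE of transport between endoplasmic reticulum and Golgi, starts at -670.4 kb from the start of *Peg10* and stood at 93.0% of its UN-SCC679 level. In the edgeR fit its log2 fold change was -0.077 (adjusted p = 0.158), not past the threshold, but it was called lower, at -0.26 (adjusted p = 4.54e-06), when scaling used the 268 rows alone.

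On the other side, the paraoxonase genes *Pon3* and *Pon2*, which encode lactone-hydrolyzing enzymes, lie between *Ppp1r9a* and *Asb4*. *Pon3* held 477, 544 and 402 counts in UN-SCC679 and 948, 990 and 1006 in UN-SCC680. It rose by 0.92 on the log2 scale (edgeR, adjusted p = 5.17e-19). The *Pon3* row starts 4596 bases inside the RefSeq gene, and an unnamed row in that stretch (5216258 to 5220486) was also called higher. Whether that row is part of *Pon3* was not tested. *Pon2* held 1362, 1512 and 1322 counts in UN-SCC679 and 1414, 1445 and 1361 in UN-SCC680, and its log2 difference of -0.12 was not past the threshold (edgeR, adjusted p = 0.0145). *Ppp1r9a* on one side of this pair and *Asb4* on the other thus stood far lower in UN-SCC680 than the genes between them.

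*Pdk4*, which encodes a kinase that switches off pyruvate dehydrogenase, is the last gene before 5.5 Mb. It held 1724, 1973 and 1605 counts in UN-SCC679 and 0, 1 and 1 in UN-SCC680. The pooled ratio was 2948, with an exact 95% interval for counting error of 816 to 24353. Outside the limits of position lie *Vps50*, of an endosomal tethering complex, and *Dync1i1*, of the dynein motor. *Vps50* held 1712, 1930 and 1542 counts in UN-SCC679 and 1272, 1359 and 1397 in UN-SCC680. It was called lower in UN-SCC680, at 69.8% of its UN-SCC679 level (log2 fold change -0.49, edgeR, adjusted p = 1.02e-13). *Dync1i1* held 0, 1 and 0 against 0, 2 and 0.

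**Figure D2:**
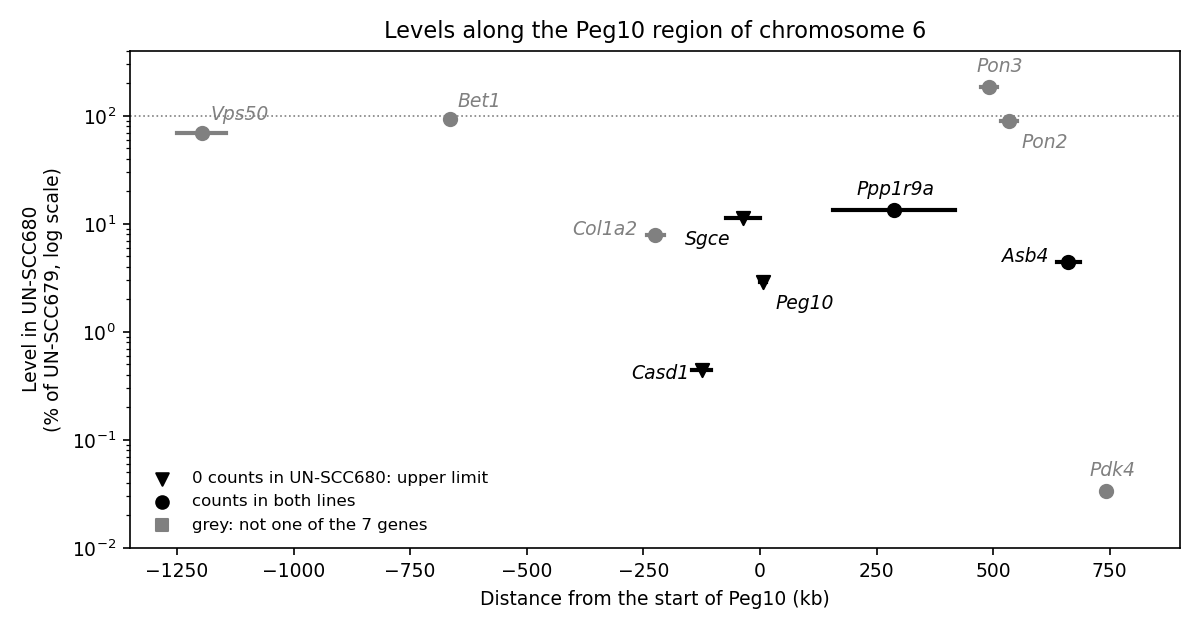
Level in UN-SCC680 as a percentage of that in UN-SCC679 (mean CPM by library total of 3 libraries each, log scale) against distance in kb from the start of *Peg10*, with bars for the extent of each gene, black for the 7 genes and gray for other named genes with more than a few counts in UN-SCC679. Triangles are upper limits for genes with 0 counts in UN-SCC680. *Bet1* (93.0%), *Pon2* (90.2%) and *Pon3* (186%) lie near or above 100%, while *Col1a2*, *Casd1*, *Sgce*, *Peg10*, *Ppp1r9a*, *Asb4* and *Pdk4* lie at or below 13.6%. *Vps50*, outside the limits of position, lies at 69.8%.

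Of 70 imprinted genes listed from general knowledge, 65 were in the table, 53 lie at moved positions and 10 at GRCm38 positions, all on chromosome 6, of which 6 belong to the 7 genes. The other 4 are *Mest*, *Copg2*, *Pon3* and *Pdk4*, of which 1 was called higher and 2 lower, beside 39.6% and 22.0% of the 268 tested rows at GRCm38 positions. *Mest*, a paternally expressed gene of the hydrolase family in a separate imprinted domain, is 25976 kb from *Peg10*. It held 129, 181 and 124 counts in UN-SCC679 and 9, 8 and 4 in UN-SCC680. Its level in UN-SCC680 was 4.39% of that in UN-SCC679, or -4.47 ± 0.21 as log2 (standard error; adjusted p = 1.08e-22 in the edgeR fit).

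*Copg2*, which encodes a coat protein of transport vesicles and is known as maternally expressed in mouse, ends opposite *Mest* and shares 912 exon bases with it. It held 453, 558 and 493 counts in UN-SCC679 and 600, 612 and 601 in UN-SCC680. The edgeR estimate was 0.14 as log2 (adjusted p = 0.0351), not past the threshold, and its sign turned, to -0.038, with scaling on the 268 rows alone. The far end of its row lies 23086 bases short of the GRCm38 gene, and whether exons there were counted was not tested. Counting by strand is not stated.

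Sorted by known imprint, the 3 paternally expressed genes at GRCm38 positions (*Peg10*, *Sgce* and *Mest*) were all lower in UN-SCC680. Of the maternally expressed genes, *Asb4*, *Ppp1r9a* and *Pdk4* were lower, *Pon3* was higher, *Copg2* and *Pon2* were not called, and *Calcr* and *Tfpi2* were not detected. *Casd1* was not sorted, since its imprint was in neither list. The choice of genes had already fixed the side of *Peg10*, *Sgce*, *Asb4* and *Ppp1r9a*. Apart from these, the lower genes were *Mest*, paternally expressed, and *Pdk4*, maternally expressed. Among all tested rows at GRCm38 positions, 22.0% were called lower. These are too few genes to tell whether the difference between the lines goes with the imprint. None of the 21 genes listed for keeping or erasing DNA methylation, such as *Dnmt1* and *Zfp57*, lie at GRCm38 positions, and their rows were not read.

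**Figure D3:**
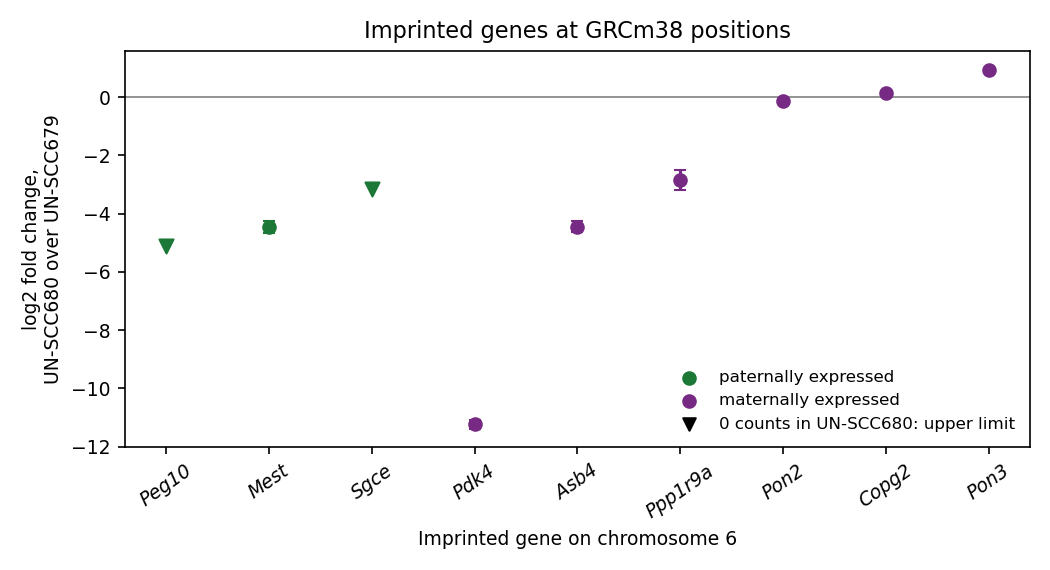
Log2 fold change of UN-SCC680 over UN-SCC679 for the tested imprinted genes in the region and at *Mest*, paternally expressed in green and maternally expressed in purple, with the standard error as bars (edgeR fit over all rows). Triangles are upper limits for *Peg10* and *Sgce*, which held 0 counts in UN-SCC680, and the fitted value of *Pdk4* rests on 2 counts there. All 3 paternally expressed genes lie below 0, and the maternally expressed genes range from *Pdk4* to *Pon3* (0.92). The choice of genes had already fixed the side of *Peg10*, *Sgce*, *Asb4* and *Ppp1r9a*.

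Partners of the 7 genes could be read in few cases. Of 12 genes of sialic acid metabolism, the pathway on whose products CASD1 acts, 2 lie at GRCm38 positions. *Slc35a1*, which carries activated sialic acid into the Golgi, stood at 365 ± 5.94 CPM in UN-SCC679 (SD, n = 3) and rose to 469 ± 13.4 CPM in UN-SCC680 (SD, n = 3), or by 0.36 as log2 (edgeR, adjusted p = 1.22e-10). *Gne*, the first enzyme of sialic acid synthesis, stood at 137 ± 5.86 CPM in UN-SCC679 (SD, n = 3) and 158 ± 11.0 CPM in UN-SCC680 (SD, n = 3). Its log2 difference of 0.21 was not past the threshold (edgeR, adjusted p = 0.00222). With scaling on the 268 rows alone these log2 differences were 0.18 for *Slc35a1* and 0.030 for *Gne*. None of 10 genes of the sarcoglycan complex and its partners, and none of 15 listed genes derived from retrotransposon gag or related to them, lie at GRCm38 positions.

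Genes were ranked by likeness to *Peg10* over the 6 libraries, as the Euclidean distance between log2 CPM values centered on the UN-SCC679 mean, among the other 267 tested rows at GRCm38 positions. The 5 nearest were *Cftr*, *Cadps2*, *Cttnbp2*, *Asb4* and *Mest*, with distances of 0.585, 1.64, 2.06, 2.55 and 2.63 against a median of 10.1 over the 268 rows. All 5 lie on chromosome 6, which holds 65 of the 268 rows. *Sgce* ranked at 8, *Casd1* at 14 and *Ppp1r9a* at 16. The distance depends on abundance as well as on pattern, since a gene at 0 counts shows a larger difference the higher it was in UN-SCC679.

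*Cftr*, the chloride channel gene mutated in cystic fibrosis, lies 13.4 Mb from *Peg10* and held 95, 135 and 103 counts in UN-SCC679. *Cadps2*, which acts in release of dense-core vesicles, held 42, 52 and 58, and *Cttnbp2*, which encodes a cortactin-binding protein, held 38, 44 and 38. All 3 held 0 counts in every UN-SCC680 library, which puts *Cftr* at least 41.0-fold, *Cadps2* at least 18.9-fold and *Cttnbp2* at least 14.9-fold lower.

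**Figure D4:**
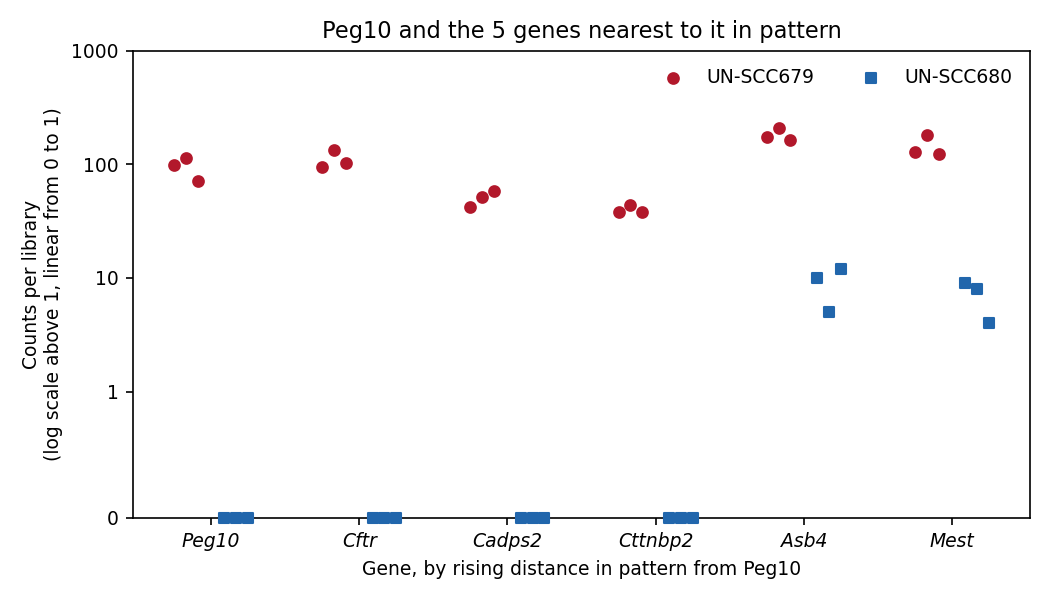
Counts in each library (1 point per library, log scale above 1) for *Peg10* and for the 5 genes nearest to it in pattern, ordered by rising distance. *Cftr*, *Cadps2* and *Cttnbp2* sit at 0 in UN-SCC680 as *Peg10* does, and *Asb4* and *Mest* sit between 4 and 12 counts there.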

How the data were processed

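The table that the authors deposited gives unnormalized counts for each Ensembl gene, beside its exon coordinates and total exon length. The submitters' processing notes name featureCounts and mm10, and the methods name Trimmomatic, Kallisto and DESeq2. Counting by strand is not given in the sources used here. The table was read through its column names, which give line and replicate, leaving 0 unused columns.

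The genes and lists were chosen with earlier results of these data known. Positions were compared with RefSeq genes of GRCm38.p6 by symbol or synonym: 527 rows were within 10 bases at either end, 25015 were moved by more than 1000 bases at both, 357 were unclear and 29460 were not placed. Rows were tested with edgeR (filterByExpr, TMM, quasi-likelihood, Benjamini-Hochberg over all rows, threshold 5e-05), and CPM values are TMM-scaled unless stated. Alternatives were DESeq2, other scalings, no filter, other thresholds, a replicate block and leaving out each library. On simulated data for 8987 rows, 186 of 200 changed rows and 0 others were called. Library totals set the floor of 3 counts and per-length levels. Besides the 7 genes, the genes named were rows of the region with a symbol and above 3 counts, and its neighbors. Also named were list genes at GRCm38 positions and the 5 nearest to *Peg10*. Not every row of the region without a symbol was described. Replicates differed by more than sampling noise. Versions were R 4.3.3, edgeR 4.0.16, DESeq2 1.42.0, Python 3.11.15 and SciPy 1.17.1.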

Additional observations from a re-analysis of the deposited data

How the results depend on the processing

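Depth limits the values of the 7 genes in UN-SCC680: 3 counts are about 0.696 CPM in UN-SCC680, and at 10 counts or more in every library 0 of the 7 genes, in place of 2, were detected in UN-SCC680. For the 3 genes at 0 counts the fitted log2 fold change depends on the prior count, with -12.32, -9.62 and -7.62 for *Casd1*, *Peg10* and *Sgce* and -8.33, -5.65 and -3.73 at a prior count of 2. Leaving out each library in turn gave -4.70 to -4.14 for *Asb4* and -3.08 to -2.58 for *Ppp1r9a*. In all fits run, including DESeq2 and other scalings, the 5 tested genes kept their direction. The choice of genes had already fixed this direction, so the fits lend it no support.

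The 2736 rows called became 5248 at an adjusted p-value under 0.05 and 1024 when the log2 fold change also had to exceed 1 in size. With that fold, 53 of the 165 rows at GRCm38 positions, 3 of the 5 rows near the 7 genes and 0 of the sialic acid genes (1 otherwise, and 2 at 0.05) were called. The replicate block gave 2528 rows and 153 at GRCm38 positions, and left the counts called at 5 near the 7 genes, 3 imprinted genes and 1 sialic acid gene. For replicates 1, 2 and 3, the correlation between the lines of each library's deviation from its line's mean was -0.038, -0.00052 and -0.022, which gives no sign of pairing. Leaving out each library gave 2225 to 2611 rows, 140 to 164 at GRCm38 positions, 5 near the 7 genes, 3 imprinted genes and 1 sialic acid gene.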
